A study of Mus musculus with 4 samples.

Results

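The genes described are 10 melanocyte pigment genes, Dct, Tyr, Tyrp1, Pmel, Mlana, Mitf, Sox10, Kit, Slc45a2 and Oca2, taken by symbol from a deposited count table of 56953 mouse genes, and all 10 were found. The table holds 4 libraries of dorsal skin from wild type C57BL/6J mice, full-thickness per the labels, after 3 days of topical treatment. In 2 libraries the agent was DMSO, the solvent control, and in the other 2 it was NEDD8i at 10 µM, a compound known here by that label only and named after NEDD8, a ubiquitin-like protein. Both groups share strain, genotype, tissue and day of harvest. The age of the mice, the stage of their hair cycle and whether replicates came from separate mice are not given in the sources used here, so the spread behind the p-values may be technical. With 2 libraries a group, the spread within each group rests on a single difference.

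Melanocytes are pigment cells of neural crest origin that make melanin inside organelles called melanosomes. The transcription factors MITF and SOX10 and the receptor tyrosine kinase KIT set up and maintain the lineage. Tyrosinase (Tyr), TYRP1 and dopachrome tautomerase (Dct) carry out steps of melanin synthesis, PMEL forms the fibrils on which melanin is laid down, MLANA is a melanosome membrane protein, and SLC45A2 and OCA2 are transporters that help set melanosome conditions for synthesis. In the hairy skin of the mouse back most melanocytes live in hair follicles, where pigment is made while hair grows, and Dct is also used as a marker of unpigmented melanoblasts and melanocyte stem cells of the follicle.

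Each library came from a 3′ end protocol, in which a read marks the tail end of a polyadenylated transcript. Library totals ran from 5639791 to 8856572 counts, of which 52.6% to 61.7% fell on 3 ribosomal RNA genes, which left 2287839 to 3654442 counts for all other genes. Levels below are CPM, read counts scaled to library size, adjusted with TMM factors for library make-up. They compare libraries for 1 gene at a time and not genes with each other. A level of 3 counts, used as the floor for a gene with no reads, stood at 0.36 to 0.543 CPM, and since no source used here speaks of molecular identifiers, intervals and floors cover counting error only. In bulk skin, fewer cells of a type and less RNA per cell cannot be told apart.

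Most of the pigment genes differed far more between the DMSO libraries than between DMSO replicate 2 and the NEDD8i libraries. The 10 genes together had 2591 reads in DMSO replicate 1 and 328 in replicate 2, beside 509 and 526 reads in the NEDD8i libraries. As a share of reads outside ribosomal RNA this was 0.0917% (exact 95% binomial interval 0.0882 to 0.0953) in DMSO replicate 1, against 0.0143% (0.0128 to 0.016), 0.0139% (0.0127 to 0.0152) and 0.0156% (0.0143 to 0.017) in the others in that order. DMSO replicate 1 stood alone, and the interval of DMSO replicate 2 overlapped those of both NEDD8i libraries. Each of the 10 genes, which were taken by symbol, had reads in at least 1 library, Oca2 in DMSO replicate 1 alone. The summed level was 6.23 times higher in DMSO replicate 1 than in DMSO replicate 2 (95% counting interval 5.56 to 7.01), whereas the NEDD8i libraries summed were 1.06 times DMSO replicate 2 (0.939 to 1.21). Of the 10 genes, 9 had their highest CPM in DMSO replicate 1, the exception being Mitf. Of the 5 members that passed the filter on low counts 4 did, beside 25.5% of all tested genes. Kit is among the 4, though it was nearly level with NEDD8i replicate 1 (3.00 and 2.98 CPM). Among genes that passed the filter on low counts, 3 of 5 members (Dct, Tyrp1 and Pmel) were at least 5-fold higher there than in every other library, against 0.861% of the 11388 tested genes.

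**Figure D1:**
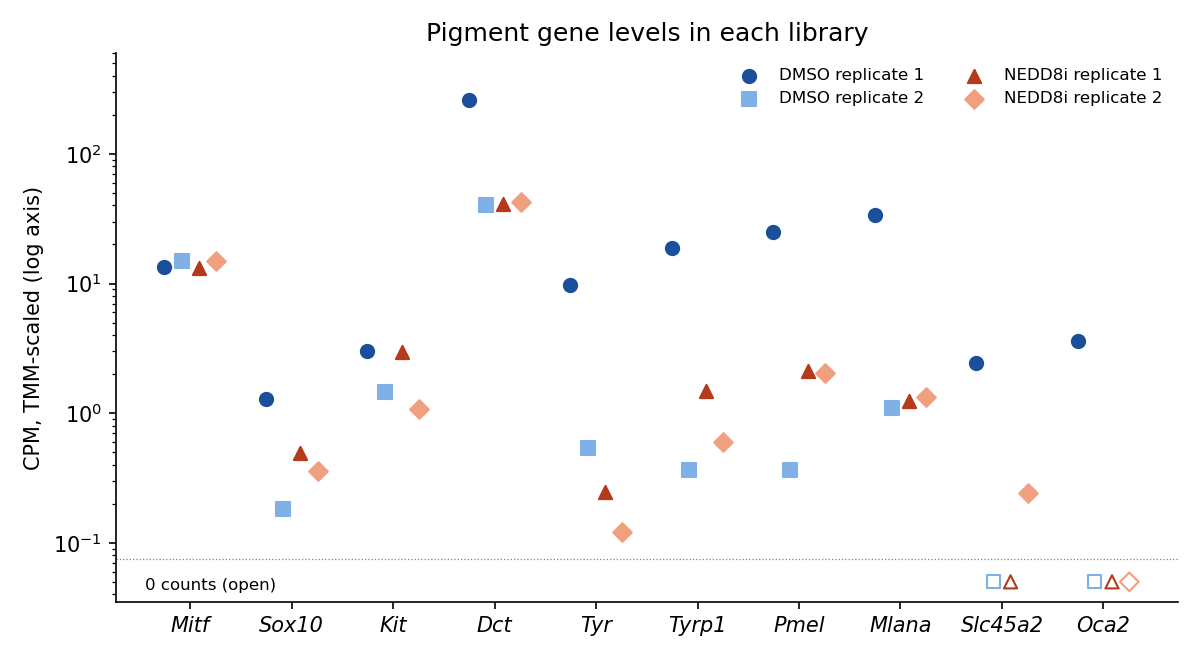
TMM-scaled CPM (log axis) of each pigment gene in the 4 libraries, with open symbols for 0 counts. DMSO replicate 1 lies far above the other libraries for Dct (259.7 CPM against 40.6 to 42.5) and the genes to its right, and Mitf lies between 13.3 and 14.9 CPM in all of them.

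No pigment gene was called between NEDD8i and DMSO. Of the 10 members 5 passed the filter (Dct, Tyrp1, Pmel, Mitf and Kit), and 0 of these passed the quasi-likelihood test of edgeR at 0.05 after Benjamini-Hochberg adjustment over all genes, where 0.782% of tested genes were called. At an unadjusted p under 0.05 the members called were also 0, against 16.5% of all tested genes, and 0 were called by DESeq2 and by limma-voom, which called 3.64% and 0.237% of all genes. With no filter on low counts Tyr and Oca2 were called lower, as were 1.35% of all genes, and without DMSO replicate 2 the 6 genes Dct, Tyr, Tyrp1, Pmel, Mlana and Oca2 were, as were 5.61% of all genes. The log2 fold changes of the 5 genes had a median of -1.84, beside -0.00315 over all tested genes. All were negative, but those of Mitf (-0.0041 ± 0.33 SE) and Kit (-0.15 ± 0.74 SE) were smaller than their SE. Without DMSO replicate 1 those of Dct, Tyrp1, Pmel and Kit were positive, at 0.04, 1.47, 2.45 and 0.47. The members that failed the filter, Tyr, Mlana, Sox10, Slc45a2 and Oca2, had too few reads in 3 of the 4 libraries and are described by their counts.

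Dct, which converts dopachrome to a carboxylated indole in melanin synthesis, was the member with most reads (ENSMUSG00000022129.5, chromosome 14, 118250202 to 118289597, minus strand of GRCm39, as the build is taken to be). With DMSO it counted 1817 reads in replicate 1 and 224 in replicate 2, and with NEDD8i 333 and 354. In CPM these were 259.7, 40.57, 41.35 and 42.53, so that 3 of the 4 libraries were nearly level across both treatments and DMSO replicate 1 had 6.11 to 6.40 times the level of each. The group means were 150.1 ± 154.9 CPM in DMSO and 41.9 ± 0.831 CPM after NEDD8i (mean ± SD, n = 2 each), which overlap, and the log2 fold change was -1.84 ± 0.93 (SE), at an adjusted p = 0.436 in edgeR. Without DMSO replicate 1 the log2 fold change was 0.04 (adjusted p = 0.967 in edgeR), and without DMSO replicate 2 it was -2.61 (adjusted p = 1.54e-12 in edgeR). In both of these fits the DMSO group has 1 library, which is assumed to vary like the others.

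The enzymes Tyr and Tyrp1 are relatives of Dct and showed the same lone high library with few reads elsewhere. Tyr, the rate-limiting enzyme of melanin synthesis (chromosome 7, 87073979 to 87142720, minus strand), counted 68 and 3 reads with DMSO, then 2 and 1 with NEDD8i, or 9.72, 0.543, 0.248 and 0.12 CPM. Its groups did not overlap, being lower after NEDD8i, as were 22.9% of tested genes, a set that Tyr was filtered out of. DMSO replicate 2 stood at the 3-count floor and the NEDD8i libraries under it. Tyrp1, which acts later in eumelanin synthesis and stabilises tyrosinase (chromosome 4, 80752467 to 80769956, plus strand), counted 131 and 2 reads with DMSO, then 12 and 5 with NEDD8i. These were 18.7, 0.362, 1.49 and 0.601 CPM, so the NEDD8i libraries lay between the DMSO libraries (log2 change -3.19 ± 1.82 SE, adjusted p = 0.506 in edgeR). Without DMSO replicate 1 the Tyrp1 log2 fold change was 1.47 (adjusted p = 0.686 in edgeR).

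Since these 3 enzyme genes shared the high library, their promoters are shown as a description of sequence and not of its use. MITF binds E-box sequences with the core CATGTG, and the M-box of pigment genes is an extended form of it. RefSeq promoters on GRCm38.p6, running from 250 bases before to 50 bases after the annotated start, were found for 6 of the 10 genes in 9 windows (Dct, Tyr, Tyrp1, Mitf, Kit and Oca2). TCATGTG was searched on both strands, and windows of 3 genes held it, those of Dct, Tyr and Tyrp1, against 3.78% of the 32817 promoter windows of all genes. The shorter CATGTG, which every TCATGTG contains, was in 14.2% of all windows and in the same 3 genes and Oca2. The longest run around the motif that the Tyr and Tyrp1 windows had in common was AGTCATGTGCT, which has the form of the M-box and was in 7 of all windows (0.0213%), those 2 included. The sequences are given 5′ to 3′ on the strand of the gene, with TCATGTG or its reverse complement CACATGA in capitals, at chr14:118052197-118052496 (minus strand) for Dct, chr7:87493463-87493762 (minus strand) for Tyr and chr4:80833963-80834262 (plus strand) for Tyrp1.
Dct: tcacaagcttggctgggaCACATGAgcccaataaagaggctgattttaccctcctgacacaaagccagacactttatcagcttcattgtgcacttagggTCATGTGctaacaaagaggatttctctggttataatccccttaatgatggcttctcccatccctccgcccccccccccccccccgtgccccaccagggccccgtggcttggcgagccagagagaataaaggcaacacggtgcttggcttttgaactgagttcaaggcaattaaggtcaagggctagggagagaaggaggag
Tyr: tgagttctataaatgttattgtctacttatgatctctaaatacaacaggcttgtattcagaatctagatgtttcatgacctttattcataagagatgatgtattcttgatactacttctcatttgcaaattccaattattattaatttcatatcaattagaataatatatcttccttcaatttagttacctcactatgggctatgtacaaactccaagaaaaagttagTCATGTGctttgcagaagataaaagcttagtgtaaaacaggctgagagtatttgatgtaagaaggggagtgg
Tyrp1: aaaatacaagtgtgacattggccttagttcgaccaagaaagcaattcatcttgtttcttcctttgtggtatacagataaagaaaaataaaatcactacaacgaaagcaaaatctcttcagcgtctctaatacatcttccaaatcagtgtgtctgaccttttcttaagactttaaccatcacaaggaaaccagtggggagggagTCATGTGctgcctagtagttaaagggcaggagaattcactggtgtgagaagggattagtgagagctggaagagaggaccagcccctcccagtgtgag
The first base of the motif lay 22 bases upstream of the start in Tyr and 47 in Tyrp1. In Dct there were 2 matches, at 151 bases upstream on the gene's strand and at 232 bases on the opposite strand. The Tyr and Tyrp1 windows differed from the Dct window, which did not hold the longer run.

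The structural melanosome genes Pmel and Mlana were also highest in DMSO replicate 1. Pmel (chromosome 10, 128542127 to 128556107, plus strand) had 174 and 2 counts with DMSO and 17 in each NEDD8i library. That gave 24.9, 0.362, 2.11 and 2.04 CPM, with both NEDD8i libraries between the DMSO libraries (log2 change -2.61 ± 1.90 SE, adjusted p = 0.613 in edgeR). Without DMSO replicate 1 the Pmel log2 fold change was 2.45 (adjusted p = 0.288 in edgeR), and against DMSO replicate 2 alone the NEDD8i libraries summed were 5.73 times higher (95% counting interval 1.47 to 49.2), on 2 reads in that DMSO library. The 3′ end of Pmel shares 105 exon bases with Dgka on the opposite strand, and the sources used here do not say whether counting used strand. Dgka had 79, 125, 67 and 114 counts in library order and did not share the pattern of Pmel. Mlana (chromosome 19, 29675224 to 29686034, plus strand) counted 235 and 6 reads with DMSO, then 10 and 11 with NEDD8i, or 33.6, 1.09, 1.24 and 1.32 CPM. As with Dct, 3 libraries were nearly level, the NEDD8i libraries summed being 1.18 times DMSO replicate 2 (0.461 to 3.57), and DMSO replicate 1 was 25.4 to 30.9 times higher than each of them.

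The transporter genes Slc45a2 and Oca2 were read almost only in DMSO replicate 1. Slc45a2 (chromosome 15, 11000807 to 11029319, plus strand) counted 17 and 0 reads with DMSO, then 0 and 2 with NEDD8i. Oca2, the pink-eyed dilution gene (chromosome 7, 55889508 to 56186266, plus strand), had 25 counts in DMSO replicate 1 and 0 in each of the other libraries. Against a floor of 3 counts per library, Oca2 was at least 6.58-fold higher in DMSO replicate 1 than in DMSO replicate 2 and at least 9.59-fold and 9.91-fold higher than in NEDD8i replicates 1 and 2. A difference in either gene between NEDD8i and DMSO replicate 2 was not detectable at this depth.

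Mitf, the lineage transcription factor, was even. Its counts were 94 and 82 in DMSO and 107 and 124 after NEDD8i (chromosome 6, 97784013 to 97998310, plus strand), or 13.4, 14.8, 13.3 and 14.9 CPM. The group means were 14.1 ± 1.0 CPM in DMSO and 14.1 ± 1.14 CPM after NEDD8i (mean ± SD, n = 2 each), and the log2 fold change was -0.0041 ± 0.33 (SE), at an adjusted p = 0.996 in edgeR. DMSO replicate 1 was 0.905 times DMSO replicate 2 (95% counting interval 0.666 to 1.23), an interval wholly below those of Dct, Tyr, Tyrp1, Pmel and Mlana over the same pair. Mitf is transcribed from several promoters and is also expressed outside melanocytes, macrophages among them, and the table counts all its transcripts together. Of 12 macrophage markers, 6 were tested and 0 passed the threshold in edgeR. C1qa, a complement subunit made by macrophages, had 35 and 30 counts with DMSO and 125 and 99 after NEDD8i (log2 change 1.39 ± 0.38 SE, adjusted p = 0.131 in edgeR, or 0.0469 and 0.0196 without DMSO replicate 1 and 2, fits that called 10.4% and 10.7% of all genes). Their part in the Mitf level was not tested.

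Sox10 and Kit had few reads. By CPM, DMSO replicate 1 led for both genes, NEDD8i replicate 1 followed, and only the order of the remaining libraries differed. Sox10, a neural crest transcription factor that acts upstream of Mitf and Dct (chromosome 15, 79039108 to 79049440, minus strand), counted 9 and 1 reads with DMSO, then 4 and 3 with NEDD8i. Its level in DMSO replicate 1 over DMSO replicate 2 was 7.10 with a counting interval of 0.984 to 311, which includes no difference. Sox10 is also a Schwann cell gene, and the Schwann cell list summed to 110.6, 116.5, 88.4 and 123.7 CPM in library order, mostly from Erbb3 and Egr2, which other skin cells express too. Kit, the receptor for stem cell factor (chromosome 5, 75735576 to 75817382, plus strand), counted 21 and 8 reads with DMSO, then 24 and 9 with NEDD8i, or 3.00, 1.45, 2.98 and 1.08 CPM. DMSO replicate 1 and NEDD8i replicate 1 were the higher library of their group, and the groups overlapped (log2 change -0.15 ± 0.74 SE, adjusted p = 0.944 in edgeR). The Kit log2 fold change was 0.47 without DMSO replicate 1 and 0.39 without NEDD8i replicate 2. Mast cells also carry KIT, and 6 of 11 mast cell markers, Cpa3, Tpsab1 and Cma1 among them, had 0 counts in all libraries. The list summed to 0.429, 0.362, 4.47 and 2.04 CPM. Most of it after NEDD8i was Hdc, the histamine-making enzyme, with 0 and 0 counts with DMSO and 30 and 13 after NEDD8i. Hdc did not pass in edgeR (adjusted p = 0.088) or in limma-voom (adjusted p = 0.154), which called 0.237% of all genes. It passed in DESeq2 (adjusted p = 0.0166), which called 3.64%. Its log2 change was 7.26 ± 1.60 (SE) in edgeR, 6.45 in DESeq2 and 4.94 in limma-voom. In edgeR it was 7.27 and 7.38 without DMSO replicate 1 and 2, and 7.67 without NEDD8i replicate 2. DMSO had 0 counts in all these fits, so the size of the change depends on the fit and is not measured.

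The make-up of the pigment reads differed between DMSO replicate 1 and the other libraries, a comparison that library scaling does not touch. Dct held a similar share of the 10 genes' reads everywhere, at 70.1%, 68.3%, 65.4% and 67.3% in library order, with overlapping exact binomial intervals. The 6 pigment production genes other than Dct (Tyr, Tyrp1, Pmel, Mlana, Slc45a2 and Oca2) held 25.1% (95% interval 23.4 to 26.8) in DMSO replicate 1, and 3.96% (2.13 to 6.68), 8.06% (5.84 to 10.8) and 6.84% (4.84 to 9.35) in DMSO replicate 2 and NEDD8i replicates 1 and 2. Mitf held 3.63% (2.94 to 4.42) in DMSO replicate 1 and 25.0%, 21% and 23.6% in the others.

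**Figure D2:**
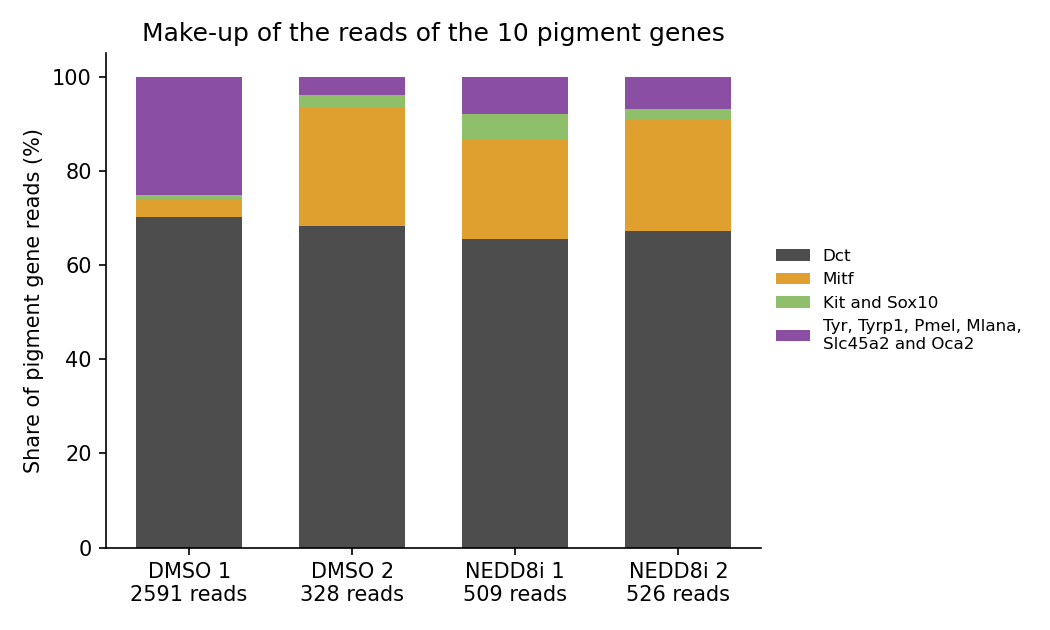
Share of the 10 genes' reads (percent) held by Dct, Mitf, Kit with Sox10, and the 6 other production genes, 1 bar a library with its read total below. The Dct part is 65.4% to 70.1% in every bar, while the production gene part is 25.1% in DMSO replicate 1 and 3.96% to 8.06% in the rest.

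Dct therefore moved less between libraries than the other production genes did. Taking Dct and those 6 genes alone, Dct held 73.7% of reads (95% interval 71.9 to 75.4) in DMSO replicate 1, 94.5% (90.8 to 97.0) in DMSO replicate 2, 89.0% (85.4 to 92.0) in NEDD8i replicate 1 and 90.8% (87.4 to 93.5) in NEDD8i replicate 2. The 6 genes summed were 39.5 times higher in DMSO replicate 1 than in DMSO replicate 2 (22.9 to 74.5), beside 6.40 times for Dct (5.57 to 7.39). The intervals of DMSO replicate 2 and the NEDD8i libraries overlapped for the Dct share, and the NEDD8i libraries summed were 2.0 times DMSO replicate 2 for the 6 genes (1.10 to 3.92), on 13 reads in DMSO replicate 2 and 41 and 36 in the NEDD8i libraries. This compares libraries, not treatments, because the lone DMSO library has no replicate of its own kind.

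**Figure D3:**
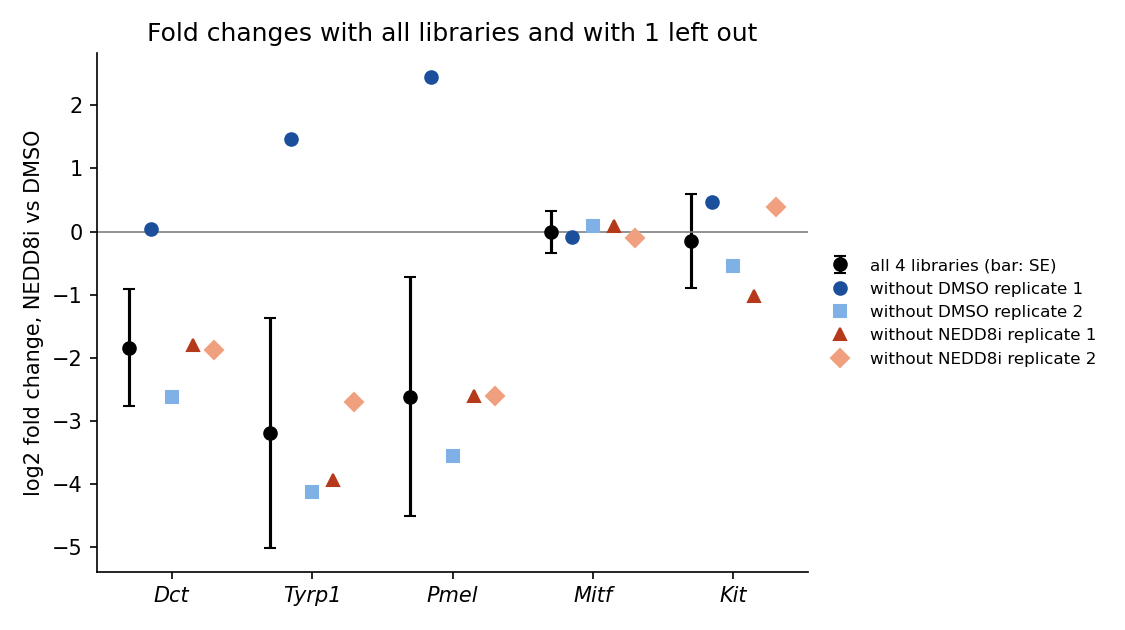
Log2 fold change, NEDD8i relative to DMSO, of the 5 tested pigment genes from the fit on all libraries (black, bar 1 SE) and from fits with 1 library left out. For Dct, Tyrp1 and Pmel the value without DMSO replicate 1 is the only one plotted above 0 (0.04, 1.47 and 2.45), and Mitf stays near 0 in every fit.

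The pattern of Dct over the 4 libraries was nearest to that of Alcam, a cell adhesion molecule of the immunoglobulin superfamily. Likeness was the root mean square difference of log2 CPM, centred on each gene's mean, over the 4 libraries. The genes named are the nearest among those with a mean log2 CPM of at least 2. Pigment genes and predicted gene models (Gm or Rik names) were left out. Over all tested genes Pi15, Ttyh3 and Nrep ranked 5, 7 and 8. Alcam had 771, 116, 189 and 181 counts in library order and a difference of 0.155. Hsbp1l1 followed at 0.160, Pi15 at 0.232, Ttyh3 at 0.271 and Nrep at 0.278. Of the other tested pigment genes, with no minimum on their level, Tyrp1 was at 0.875, Kit at 0.949, Pmel at 0.965 and Mitf at 1.18; the measure counts a difference in size as well as in order. With 4 libraries, and 1 of them far from the rest, many genes can share such a pattern.

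Hair shaft and inner root sheath genes also peaked in DMSO replicate 1. Of 24 listed, 23 were in the table, and all 23 had their highest CPM in DMSO replicate 1, beside 25.5% of all tested genes. Of 20 tested, 18 were at least 5-fold higher there than in every other library, against 0.861% of all tested genes. The list summed to 7602, 42.4, 32.8 and 477.5 CPM in library order. NEDD8i replicate 2 thus stood far above NEDD8i replicate 1 for hair genes, whereas the 10 pigment genes were at 63.2 CPM in both. Hair cortex and root sheath genes at or near 0 in DMSO replicate 2 included Krt27, Krt31, Krt33b and Krt73, each with 0 counts there and 890 to 2415 in DMSO replicate 1, and these were chosen after their values were seen. The part of hair follicle RNA in the pigment gene levels was not tested.

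**Figure D4:**
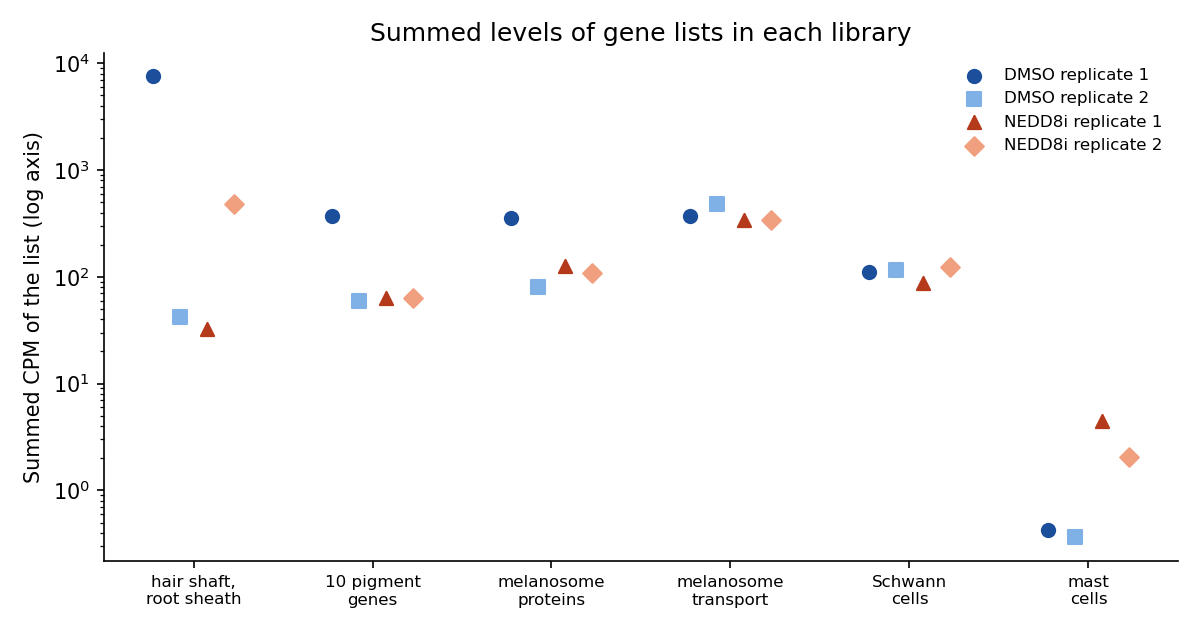
Summed TMM-scaled CPM (log axis) of 6 gene lists in the 4 libraries. Hair shaft genes span 32.8 to 7602 CPM with NEDD8i replicate 2 at 477.5, the 10 pigment genes are high in DMSO replicate 1 alone, and the melanosome transport list spans 340 to 478.3 CPM.

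Other genes of the pigment system fell into those that followed the production genes and those that did not. Among 16 further melanosome proteins and transporters, 10 were tested, 0 rose and 0 fell, and 9 of the 16 were highest in DMSO replicate 1; the median log2 fold change was -0.15. The most abundant, Gpnmb, a PMEL relative that macrophages express too, counted 1563 and 42 reads with DMSO, then 107 and 217 with NEDD8i (log2 change -2.55, adjusted p = 0.668 in edgeR). Gpnmb was called in opposite directions depending on which DMSO library was kept, at a log2 change of 1.36 (adjusted p = 0.0235 in edgeR) without DMSO replicate 1 and -3.48 (adjusted p = 2.88e-22 in edgeR) without DMSO replicate 2. Atp7a, the copper pump that loads tyrosinase, had 338 and 190 against 152 and 164 counts (log2 change -1.10 ± 0.31 SE, adjusted p = 0.134 in edgeR, or 0.0020 without DMSO replicate 2). Chosen after their values were seen, Slc24a5, a melanosomal exchanger, had 157, 5, 9 and 6 counts in library order. Trpm1, the melastatin channel, had 110, 4, 7 and 9, and the melanosomal receptor Gpr143 had 5, 0, 0 and 0. Other genes of the list, chosen in the same way, did not follow the production genes. Gsta4 had 13, 44, 294 and 171 counts in library order, Tpcn2 had 3, 5, 29 and 19, and Bace2 had 28, 25, 4 and 7.

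Genes that build and move melanosomes, most of which serve lysosome-related organelles in many cells, did not share the pattern. Of 23 listed, 22 were tested, 0 rose and 0 fell, and the median log2 fold change was 0.08. In DMSO replicate 1, 4 of the 23 were highest, and 3 of the 22 tested were, beside 25.5% of all tested genes. The adaptor subunits Ap3d1 and Ap3b1 had log2 fold changes of -0.55 and -0.51 (edgeR adjusted p = 0.490 and 0.410), and Ap3d1 was at -0.94 (adjusted p = 0.0252 in edgeR) without DMSO replicate 1 and -0.029 without DMSO replicate 2. Chosen after their values were seen, Rab27a, the GTPase that tethers melanosomes to the actin motor MYO5A, counted 81 and 95 reads with DMSO, then 19 and 31 with NEDD8i, with no overlap in CPM (log2 fold change -2.23, SE 0.44, adjusted p = 0.0609 in edgeR), where 22.9% of tested genes were lower without overlap. Its relative Rab38, which delivers tyrosinase to melanosomes, had 58 and 39 against 213 and 142 counts (log2 change 1.5 ± 0.37 SE, adjusted p = 0.103 in edgeR). With DESeq2, which called 3.64% of all genes, both passed, at an adjusted p = 0.00336 for Rab27a and 0.0469 for Rab38, and with limma-voom, which called 0.237%, neither did (adjusted p = 0.104 and 0.157). Without DMSO replicate 1 and 2 the log2 fold changes in edgeR were -2.50 and -1.90 for Rab27a, and 1.61 and 1.41 for Rab38. Without NEDD8i replicate 1 and 2 they were -1.93 and -2.61 for Rab27a, and 1.17 and 1.77 for Rab38. Each of these fits has 1 library in a group.

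Of 21 listed regulators and signals of pigment cells, 20 were in the table and 15 were tested. Of these 1 rose, 0 fell and 14 did not pass, where 0.782% of all tested genes were called and 0.667% were called higher, with a median log2 fold change of 0.57. The gene that rose was Nrg1, a ligand of ERBB receptors, with 1 and 4 reads under DMSO and 118 and 76 after NEDD8i (log2 change 4.81 ± 0.69 SE, adjusted p = 0.0186 in edgeR). Its call was lost without NEDD8i replicate 1 (adjusted p = 0.060 in edgeR) and with limma-voom (adjusted p = 0.136). Chosen after its values were seen, Kitl, which encodes the KIT ligand and is made by keratinocytes and other niche cells, counted 175 and 51 reads with DMSO, then 368 and 318 with NEDD8i (log2 change 1.28 ± 0.44 SE, adjusted p = 0.197 in edgeR). Its CPM values of 25.0 and 9.24 against 45.7 and 38.2 did not overlap, and 25.0% of tested genes were higher without overlap. The Kitl log2 change was 2.17 (adjusted p = 6.55e-06 in edgeR) without DMSO replicate 1 and 0.76 (adjusted p = 0.164 in edgeR) without DMSO replicate 2, and Kitl also passed with no filter (adjusted p = 0.00993 in edgeR, where 1.63% of all genes were called higher). Also named after their values were seen, the melanocortin receptor gene Mc1r had 16, 0, 6 and 6 counts in library order, and the Wnt effector Lef1, which hair matrix cells also express, had 115, 0, 4 and 12.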

How the data were processed

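The authors deposited raw read counts per gene in 1 table with a featureCounts layout, per the file headers, made from QuantSeq FWD (3′ end) libraries per the labels. The submitters' processing notes list STAR, featureCounts and DESeq2, and both GRCm38 and GRCm39; versions, strand and multi-mapping settings are not given in the sources used here. Of 52029 genes matched to GENCODE M21 (GRCm38), 1405 had the same start, so table coordinates are taken to be GRCm39, while promoters are RefSeq GRCm38.p6. Groups came from the labels, and 0 sample columns were unused. The exon lengths deposited by the authors were not used to scale levels, and no other unit or score was tested.

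Counts were tested in R 4.3.3 with edgeR 4.0.16: filterByExpr defaults (minimum count 10, minimum total 15), which left 11388 genes, TMM factors of 1.18, 0.982, 0.912 and 0.945, and the robust quasi-likelihood F test with Benjamini-Hochberg adjustment at 0.05. Standard errors of log2 fold changes had a median of 0.42, and a prior count of 2 went into log2 CPM. Intervals are exact (Clopper-Pearson) at 95%. Alternatives were DESeq2 1.42.0, voom in limma 3.58.1, RLE factors, no TMM, no filter, a fixed filter (10 counts in 2 libraries), no robust option, no ribosomal RNA genes, each library left out in turn and a block on the replicate number; the crossed block was chosen after seeing the data. Only the edgeR, voom and DESeq2 fits of all libraries, with the main filter and scaling, were tested on simulated data. The other alternatives were not. The members and gene lists were chosen with earlier results of these data known. Named were all members, list genes past the threshold or else the 2 with highest CPM, and the 5 genes nearest to Dct. Some genes of the marker lists are not reported here.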

Additional observations from a re-analysis of the deposited data

How the results depend on the processing

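The count of pigment genes called was 0 with DESeq2, RLE factors, limma-voom, no TMM, the fixed filter, no robust option, the replicate block and no ribosomal RNA genes. It was 2 (Tyr and Oca2, both lower) with no filter, and 0 to 6 when a library was left out, with 6 lower without DMSO replicate 2 and 0 in the other fits of this kind; 5.61% of all genes were called lower in the fit without DMSO replicate 2. Over all genes the 89 calls became 414 with DESeq2, 27 with limma-voom, 47 with library sizes without TMM, 703 with no filter and 48 without the robust option. They ranged from 44 to 1358 with a library left out (1285 and 1358 without DMSO replicates 1 and 2, and 44 and 46 without either NEDD8i library). The cause was not tested.

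The replicate number as a block gave 285 calls, and with numbers crossed, since same-numbered deviations correlated at -0.13 across genes, 483; members called stayed at 0 in both. Nothing in the labels says that numbers pair samples. With a library left out, log2 fold changes ranged from -2.61 to 0.0373 for Dct, -4.13 to 1.47 for Tyrp1, -3.55 to 2.45 for Pmel, -1.02 to 0.466 for Kit and -0.104 to 0.0919 for Mitf; the highest was without DMSO replicate 1 for the first 4, and Kit was also positive without NEDD8i replicate 2. Gpnmb ranged from -3.48 to 1.36 (without DMSO replicate 1). Mitf was at 0.0235 with no filter and 0.088 without DMSO replicate 2. The pigment share of all counts was 0.0435%, 0.00582%, 0.00575% and 0.00595% in library order, and without Dct the share outside ribosomal RNA was 0.0274%, 0.00455%, 0.00482% and 0.00509%. Left without Dct, the 6 production genes made up 84.0%, 12.5%, 23.3% and 20.9% of pigment reads. In each of these the order of DMSO replicate 1 above the rest was kept. Depth limits Tyr, Sox10, Slc45a2 and Oca2, which had 0 to 4 counts outside DMSO replicate 1. Over the 5 tested pigment genes and 10 other named genes, 172 of 209 values under alternatives kept direction and call, 27 gained a call, 2 lost one (both Nrg1) and 9 changed sign, 1 of which also gained a call (Gpnmb).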
